A study of Mus musculus with 27 samples.

Results

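Ogt and Oga encode the enzymes that add and remove O-linked N-acetylglucosamine (O-GlcNAc), a single sugar on serine and threonine residues of nuclear and cytoplasmic proteins. They are 2 of the 48440 gene identifiers in the bulk RNA count tables and 2 of the 33696 features of the single cell matrices, and were taken by name in every library that measured RNA. The tumours were MC38 tumours (MC38 is a mouse colon adenocarcinoma line) grown in Ogt-flox Lyz2-cre mice, called KO, and in Ogt-flox mice without the cre, called WT. The floxed Ogt allele is thus common to both genotypes, and KO mice also carry cre in the Lyz2 locus, which is active in myeloid cells (macrophages, monocytes and neutrophils). Bulk RNA came from tumour-associated macrophages, with 3 KO and 3 WT libraries, and single cell RNA from CD45+ immune cells, with 1 matrix per genotype analysed here. The labels list 2 single cell samples per genotype, and it is not known whether a matrix holds cells of 1 of them or of both. CUT&Tag for the transcription factor EGR2 and ATAC-seq of the macrophages supplied peak lists. The labels give no age or sex, do not say which exons of Ogt are floxed, and do not say which libraries came from which mice, so p-values measure the spread between these libraries only.

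OGT is the only enzyme that places O-GlcNAc on nuclear and cytoplasmic proteins, and OGA is the only one that takes it off there. The donor sugar, UDP-GlcNAc, comes from the hexosamine pathway, which draws on glucose, glutamine, acetyl-CoA and UTP. In many cell types the RNA of each enzyme follows the state of the modification, and retained introns in both transcripts take part in that adjustment. In macrophages and T cells the modification is known on transcription factors and signalling proteins, and OGT is needed for T cell expansion.

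Ogt (ENSMUSG00000034160.13) lies on the plus strand of chromosome X, from 101640060 to 101684351 in mm10, and its merged exons hold 8045 bases. Oga (ENSMUSG00000025220.7) lies on the minus strand of chromosome 19, from 45750261 to 45783520, with 5024 bases of exons. The antisense gene Gm15491 overlaps 551 of the exonic bases of Oga and had 0 counts in all 6 bulk libraries, which were counted without regard to strand. The promoter windows of both genes are shown because both RNAs were lower in KO macrophages and neither start site carried a deposited peak. Each window, from RefSeq on GRCm38.p6 (the assembly of mm10), runs from 250 bases before the start site to 50 bases after it, is written 5′ to 3′ on the strand of the gene, and has motif matches in capitals.
Ogt, chrX:101639801-101640100, plus strand: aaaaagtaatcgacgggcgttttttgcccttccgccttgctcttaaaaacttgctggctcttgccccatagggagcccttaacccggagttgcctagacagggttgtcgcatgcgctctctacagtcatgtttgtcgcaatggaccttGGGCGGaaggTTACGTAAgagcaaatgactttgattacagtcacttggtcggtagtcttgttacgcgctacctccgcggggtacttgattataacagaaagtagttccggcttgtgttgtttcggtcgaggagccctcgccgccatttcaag
Oga, chr19:45783504-45783803, minus strand: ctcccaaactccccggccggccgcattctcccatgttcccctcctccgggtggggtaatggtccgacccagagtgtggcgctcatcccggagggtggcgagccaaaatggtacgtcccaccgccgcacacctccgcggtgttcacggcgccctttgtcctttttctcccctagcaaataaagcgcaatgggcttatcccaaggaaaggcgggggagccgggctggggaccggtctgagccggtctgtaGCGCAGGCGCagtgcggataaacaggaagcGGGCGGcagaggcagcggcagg
In the Ogt window the capitals mark a GC box (GGGCGG) starting 102 bases before the start site and a D-box (TTACGTAA) starting 92 bases before it. In the Oga window they mark an NRF1 motif (matched here as GCGCAGGCGC, and searched with any base at position 6) starting 2 bases before the start site and a GC box starting 28 bases after it. Among 32817 RefSeq promoter windows of this length, 35.6% held a GC box, 4.59% the NRF1 motif and 0.119% the D-box, which was added to the search after the Ogt sequence had been seen. The EGR motifs GCGTGGGCG (0.612% of windows) and GCGGGGGCG (2.91%) and the ETS motif CCGGAAGT (3.89%) had no match in either window. All motifs were searched on both strands, and the marked matches do not overlap each other. RefSeq lists a second Ogt start site, whose overlapping window held a GC box and no other match. The Oga window was 65.3% G and C with 26 CpG dinucleotides, and the Ogt window 51.0% with 20, beside medians of 52.7% and 7 over all windows.

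In bulk macrophages Ogt RNA, the targeted transcript, was lower in every KO library than in any WT library but remained easy to detect. Ogt had 31.96, 39.13 and 33.04 TMM-normalised CPM (counts scaled to a common library size) in KO replicates 1, 2 and 3, against 60.95, 58.67 and 49.18 in WT replicates 1, 2 and 3. These values came from 1065, 461 and 414 counts in KO and 736, 450 and 336 in WT. The groups did not overlap, and WT replicate 3 lay nearest to KO. Ogt fell 1.64-fold in KO (log2 fold change -0.72, SE 0.0953, edgeR quasi-likelihood test, Benjamini-Hochberg adjusted p = 2.978e-09 over 12939 tested genes). The counts cover all exons, so RNA with the floxed exons removed still counts as Ogt, and the values do not measure the intact transcript.

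Oga was also lower in KO, by a smaller amount. It had 65.13, 67.82 and 77.5 CPM in KO replicates 1, 2 and 3, against 93.91, 97.52 and 85.34 in WT replicates 1, 2 and 3. The groups did not overlap, with KO replicate 3 and WT replicate 3 nearest to each other. Oga fell 1.32-fold (log2 fold change -0.41, SE 0.0708, edgeR adjusted p = 2.523e-06). Calls were common in this comparison: 37.7% of the tested genes had an adjusted p below 0.05, 18.9% lower and 18.8% higher in KO, and for 46.5% the 3 KO values did not overlap the 3 WT values. Among tested genes of chromosome X, 52 of 408 (12.7%) were called lower. A log2 fold change as low as that of Ogt or lower was found for 844 tested genes (6.52%), and as low as that of Oga for 2113 (16.3%). Bulk values cannot tell fewer expressing cells from less RNA per cell.

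**Figure D1:**
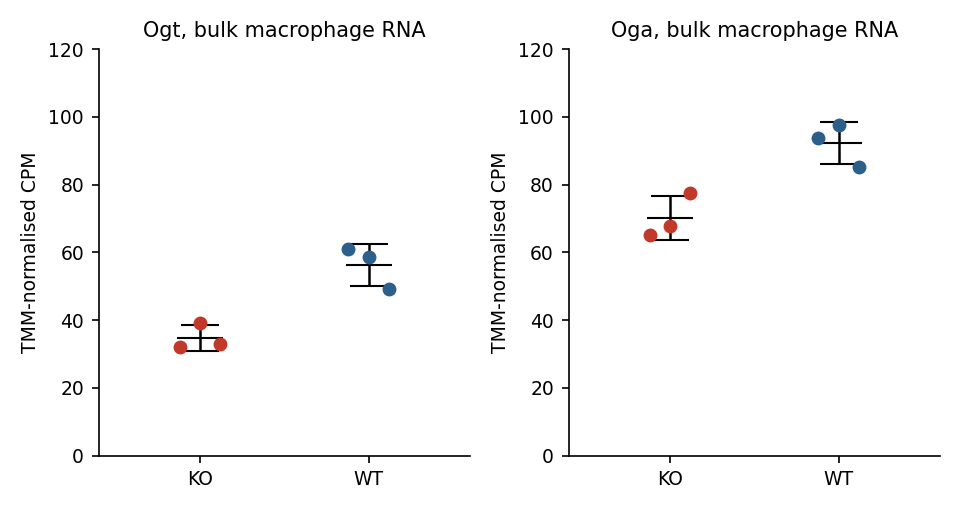
TMM-normalised CPM of Ogt (left panel) and Oga (right panel) in each bulk macrophage library, KO left of WT in each panel; points are libraries and bars are the mean ± SD (n = 3). Ogt lay between 31.96 and 39.13 CPM in KO and between 49.18 and 60.95 in WT, and Oga between 65.13 and 77.5 in KO and between 85.34 and 97.52 in WT.

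Per length, Oga was the more abundant transcript in all 6 libraries. Ogt averaged 4.32 ± 0.480 CPM per kilobase of exon in KO and 6.99 ± 0.776 in WT, and Oga 14.0 ± 1.30 in KO and 18.4 ± 1.25 in WT (SD, n = 3 each). Among the genes with a count in a library, Ogt stood between the 59.2 and 63.7 percentiles by CPM per kilobase in KO libraries and between 61.6 and 67.8 in WT libraries. Oga stood between the 79.5 and 81.4 percentiles in KO libraries and between 80.5 and 83.1 in WT libraries. The ratio of Ogt to Oga per length was 0.307, 0.360 and 0.266 in KO replicates 1, 2 and 3, against 0.405, 0.376 and 0.360 in WT replicates 1, 2 and 3. KO replicate 2 and WT replicate 3 met at about the same ratio. The mean ratio was 0.311 ± 0.0472 in KO and 0.380 ± 0.0231 in WT (SD, n = 3 each). The exact permutation p was 0.2 (2-sided), and 3 libraries against 3 cannot give a p below 0.1, so the test cannot decide on the ratio.

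The size of both differences depends on the scale. On TPM (a unit that divides counts by gene length before scaling), the median tested gene was 0.26 higher in KO on the log2 scale, against 0.005 on TMM-normalised CPM. Gene models longer than 4000 bases held 41.94% to 42.09% of the counts in KO and 39.3% to 39.35% in WT. On TPM, Ogt was still lower in KO (-0.44 on the log2 scale, limma adjusted p = 0.02266), and Oga was lower by less and lost its call (-0.14, limma adjusted p = 0.2491). Relative to the median gene, the TPM values were -0.70 for Ogt and -0.40 for Oga, against -0.70 and -0.40 on CPM. The split of called genes moved from 2442 lower and 2432 higher to 846 lower and 4701 higher with limma on TPM.

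Lyz2, the gene whose locus carries cre, had 83.98, 85.56 and 82.53 CPM in KO replicates 1, 2 and 3, against 3938, 3877 and 3830 in WT replicates 1, 2 and 3. Cre in the Lyz2 locus, the loss of Lyz2 RNA and the deletion in Ogt come together in KO mice and cannot be told apart as sources of the difference in Oga. Markers of other cells also differed between the bulk libraries, in a comparison where 18.8% of all tested genes were called higher and 18.9% lower. The summed CPM of 13 T and NK cell markers was 347.2 to 364.1 in KO and 201.2 to 216.3 in WT. Of 12 tested, 9 were higher (Cd3, T cell receptor and Cd8 genes and Nkg7) and 2 lower. The lower ones, named after their values were seen, were the NK cell markers Klrb1c (4.23 CPM in KO, 7.85 in WT) and Gzma (6.19 and 12.7). Cd4 did not pass the test, and Ncr1 was too low to test. The summed CPM of 8 neutrophil markers was 614.9 to 632.2 in KO and 905.9 to 968.4 in WT. Most of it came from Il1r2, and 1 marker was higher and 4 were lower. The summed CPM of 7 B cell markers was 106.8 to 111.6 in KO and 54.41 to 58.4 in WT, with 2 higher and 1 lower of 6 tested. That of 7 tumour cell markers was 10.74 to 15.4 in KO and 12.34 to 13.82 in WT, with 1 higher and 1 lower of 4 tested and Cldn4 at 0. That of 8 macrophage markers was 9605 to 9768 in KO and 9706 to 10000 in WT, with 4 higher and 3 lower. The part of these cells in the Ogt and Oga differences was not tested. Xist, the RNA of the inactive X chromosome, averaged 490.1 ± 23.5 CPM in KO and 446.7 ± 7.81 in WT (SD, n = 3 each), and of 4 Y-linked genes Uty, Eif2s3y and Kdm5d were at 0 in every library and Ddx3y averaged 0.106 CPM in KO and 0 in WT.

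Enzymes around O-GlcNAc cycling moved in both directions, as did all tested genes, of which 18.8% were called higher and 18.9% lower in KO. Of 7 genes of hexosamine synthesis, 6 were tested, and 2 rose and 2 fell, with a median log2 fold change of 0.07 beside -0.001 over all tested genes. Gfpt1, the first and rate-limiting enzyme, rose by 0.30 on the log2 scale (110.3 ± 5.69 CPM in KO, 89.9 ± 6.11 in WT). Uap1, which makes UDP-GlcNAc in the last step, fell by 0.31 on the log2 scale (66.2 ± 6.38 CPM in KO, 81.6 ± 3.53 in WT), and its relative Uap1l1 rose by 0.26. Gpi1, the glycolytic isomerase upstream of the pathway, fell by 0.31. Pgm3 and Gnpnat1, the middle enzymes, did not pass the test (log2 fold changes -0.13 and 0.49), and Gfpt2 was too low to test.

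Of 6 genes of hexosamine salvage and breakdown, 1 rose and 3 fell (median log2 fold change -0.11), beside 18.8% and 18.9% of all tested genes. Npl, which splits sialic acid, had the largest fall of the 3, with 3.30 ± 1.01 CPM in KO and 12.8 ± 0.657 in WT (log2 fold change -1.94). Renbp, which binds renin and interconverts N-acetylglucosamine and N-acetylmannosamine, fell by 0.33, and Gnpda2, a glucosamine-6-phosphate deaminase, by 0.73. Amdhd2, which removes the acetyl group from N-acetylglucosamine-6-phosphate, rose by 0.31. Nagk, the salvage kinase, and Gnpda1 had log2 fold changes of 0.13 and 0.11 and did not pass the test.

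Of 17 genes for proteins known to bind OGT, 16 were tested, of which 3 rose and 2 fell (median log2 fold change 0.04). Over all tested genes, 37.7% were called in either direction. Hcfc1, which encodes the nuclear cofactor HCF-1 that OGT both modifies and cleaves, rose by 0.68 (170.4 ± 2.78 CPM in KO, 106.7 ± 4.12 in WT). Phf20 and Kansl2, subunits of the NSL histone acetyltransferase complex, went opposite ways, at 0.36 and -0.42. Tet2, a DNA dioxygenase that recruits OGT to chromatin, fell by 0.21 (edgeR adjusted p = 0.0075), and Asxl1, the fifth called gene and outside the naming rule, rose by 0.23. The call of Tet2 was lost without KO replicate 2 or WT replicate 2, of Phf20 without WT replicate 1, and of Uap1l1 and Gnpda2 without KO replicate 2 (edgeR adjusted p from 0.061 to 0.11). On TPM the falls of Gpi1, Uap1, Renbp, Gnpda2 and Kansl2 did not pass the test and the value of Tet2 turned to 0.04.

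Single cells were placed in classes by counting which of 8 fixed markers of each of 9 lineages a cell showed (at least 3 shown, and a lead over every other lineage), with neither Ogt nor Oga among them. This gave 9775 KO and 9684 WT cells after filters, with median depths of 5809 and 5570.5 UMIs (unique transcript molecules counted). Macrophages (more of a marker set that includes C1qa, Trem2 and Mertk) were split from monocytes (more of one that includes Ly6c2, Ccr2 and Plac8) in the same way, and T cells were split by Cd8a or Cd8b1, Cd4, Foxp3 and Trdc. Of the kept barcodes, 23 occurred in both matrices. Each genotype is a single matrix, so no difference between genotypes in the single cells was tested, and intervals cover counting error only.

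Among classes with at least 50 cells in each matrix, Ogt and Oga were both highest in gamma-delta T cells and lowest in macrophages and cDC1 (the cross-presenting dendritic cells). Over all monocytes and macrophages, Ogt had 40.8 CPM of summed UMIs in KO (1110 UMIs in 3208 cells) and 50.9 in WT (1369 UMIs in 3469 cells). Over all T and NK cells it had 133.9 CPM in KO and 136.9 in WT. This is 3.29-fold the level of monocytes and macrophages in KO and 2.69-fold in WT. Neutrophils and dendritic cells are in neither group. Oga had 69.6 CPM in KO monocytes and macrophages and 80.5 in WT ones, against 156.0 in KO and 152.5 in WT T and NK cells. The T and NK level of Oga was thus 2.24-fold that of monocytes and macrophages in KO and 1.89-fold in WT. With every cell thinned to 1000 UMIs, 3.65% of KO and 5.25% of WT monocytes and macrophages had an Ogt UMI, against 14.1% of KO and 15.3% of WT T and NK cells. For Oga the shares were 6.86% in KO and 7.90% in WT monocytes and macrophages, against 15.01% in KO and 15.5% in WT T and NK cells. Without thinning, 23.9% of KO and 28.5% of WT monocytes and macrophages had an Ogt UMI, against 57.3% of KO and 56.5% of WT T and NK cells.

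The order of Ogt over the classes was close to the same in the 2 matrices. Gamma-delta T cells had 200.1 CPM in KO (95% Poisson interval 172.5 to 230.9) and 203.0 in WT (172.5 to 237.2). Next came unsplit T cells, which showed none of the subset markers or those of several subsets (168.5 in KO, 187.5 in WT), CD4 T cells (149.5 and 182.0) and regulatory T cells (138.5 and 163.8). Each neighbouring pair overlapped in its intervals, so the order of neighbours is not resolved. In KO, gamma-delta T cells lay above CD4 T cells (139.7 to 159.9) and regulatory T cells (127.3 to 150.4) without overlap. CD8 T cells (121.8 CPM in KO, 113.2 in WT) and NK cells (108.5 and 113.3) came next, and in KO the intervals of CD8 and regulatory T cells just met, at 127.7 and 127.3. Neutrophils stood apart between the matrices, with 59.7 CPM in KO (49.97 to 70.8) and 105.0 in WT (90.2 to 121.6). The myeloid end held monocytes or macrophages with no clear split (48.5 in KO, 57.1 in WT), monocytes (43.0 and 53.0), macrophages (37.4 and 47.8) and cDC1 (37.0 in 92 KO cells and 52.0 in 110 WT cells), which again overlapped with their neighbours.

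Oga followed nearly the same order. Gamma-delta T cells had 251.5 CPM in KO (220.4 to 285.8) and 268.5 in WT (233.3 to 307.4), the highest level of Oga in both matrices. The unsplit T cells (180.0 in KO, 196.9 in WT), CD4 T cells (171.3 and 195.8) and regulatory T cells (166.2 and 169.3) followed, with overlapping intervals between neighbours; in WT those of unsplit and regulatory T cells did not overlap. CD8 T cells had 148.4 CPM in KO and 137.0 in WT, and NK cells 125.4 and 123.4. Neutrophils had 87.3 CPM in KO and 113.8 in WT, monocytes 82.6 and 87.6, unsplit monocytes or macrophages 82.3 and 96.6, macrophages 58.1 and 71.3, and cDC1 52.8 and 49.9. The remaining classes were small. Plasmacytoid dendritic cells had 27 Ogt and 31 Oga UMIs in 19 KO cells, against 50 and 19 in 34 WT cells, and B cells had 22 Ogt and 21 Oga UMIs in 33 KO cells, against 26 and 18 in 30 WT cells. Migratory dendritic cells had 1 Ogt and 1 Oga UMI in 11 KO cells, against 0 and 2 in 6 WT cells, and cells of the tumour gate had 12 Ogt and 8 Oga UMIs in 5 KO cells, against 7 and 3 in 10 WT cells. These counts are too few to place the classes in the order.

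**Figure D2:**
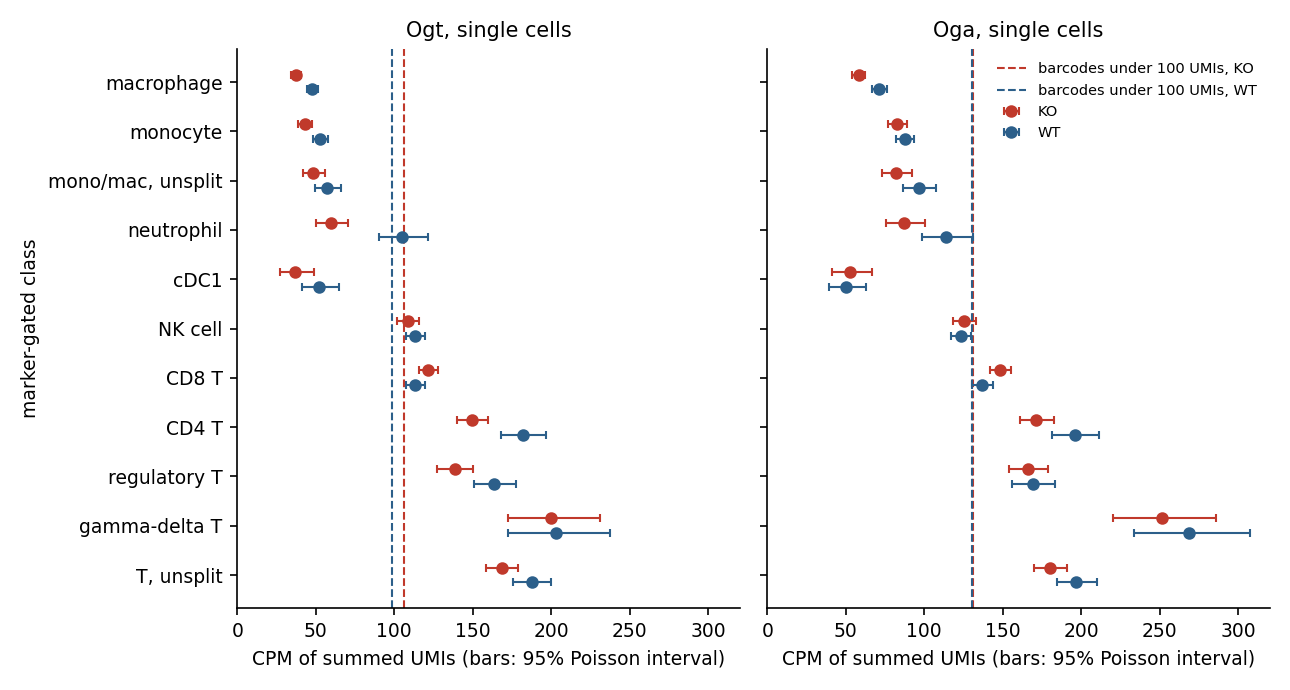
CPM of summed UMIs of Ogt (left) and Oga (right) in each marker-gated class, KO above WT, with 95% Poisson intervals that cover counting error only; dashed lines give the level in barcodes under 100 UMIs. Macrophages lie at 37.4 (KO) and 47.8 (WT) for Ogt, below the dashed lines at 106.5 and 98.5, and gamma-delta T cells lie highest for both genes.

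Barcodes under 100 UMIs, which hold free RNA rather than cells, carried 106.5 CPM of Ogt in KO and 98.5 in WT, and 131.0 CPM of Oga in KO and 130.1 in WT. The macrophage and monocyte levels were thus below the free-RNA level. T cell levels were above it, but in WT CD8 T cells the intervals of both genes overlapped those of the free RNA (Oga 130.4 to 143.8 against 120.3 to 140.5). NK cells lay above it for Ogt and slightly below it for Oga, at 125.4 against 131.0 in KO and 123.4 against 130.1 in WT. Neutrophils lay below it except for Ogt in WT, at 105.0 against 98.5. In T and NK cells the summed macrophage genes C1qa, C1qb, C1qc, Apoe, Lgmn and Ctsb stood at 7.89% of their free-RNA level in KO and 8.88% in WT. The subsets varied, from 3.25% in KO and 5.86% in WT NK cells to 13.3% and 12.05% in CD4 T cells. Regulatory T cells differed between the matrices, with 11.2% in KO and 17.7% in WT.

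By CPM, Ogt was lower in KO than in WT in macrophages, monocytes and neutrophils. This was not particular to myeloid classes. CD4 T cells (ratio 0.822), regulatory T cells (0.846) and unsplit T cells (0.899) also had intervals below 1. The KO over WT ratio of Ogt CPM was 0.782 in macrophages (95% counting interval 0.696 to 0.878, 538 UMIs in KO and 646 in WT) and 0.811 in monocytes (0.710 to 0.926). It was lowest in neutrophils, at 0.569 (0.451 to 0.716, 132 UMIs in KO and 179 in WT). Among genes with at least 100 UMIs in either matrix, a ratio as low was found for 7.61% of genes in macrophages, 8.93% in monocytes and 1.77% in neutrophils. The background of genes at least 1.25-fold lower in KO was 8.8% in macrophages, 7.71% in monocytes, 7.31% in unsplit monocytes or macrophages and 20.8% in neutrophils. By CPM, Ogt passed that fold in macrophages and neutrophils and not in monocytes or unsplit cells. By UMIs per cell thinned to 1000 UMIs, the Ogt ratio was 0.752 in macrophages, 0.673 in monocytes, 0.665 in unsplit cells and 0.483 in neutrophils. Over all kept cells the thinned ratio was 0.857, and over all T and NK cells 0.889. Thinned counts were small (24 Ogt UMIs in KO and 34 in WT unsplit cells), and the background was taken on unthinned CPM only. Per cell, macrophages held 0.414 Ogt UMIs in KO and 0.474 in WT (ratio 0.874), and neutrophils 0.182 in KO and 0.292 in WT (ratio 0.623). With cells thinned to 1000 UMIs, 4.81% of KO and 9.94% of WT neutrophils had an Ogt UMI, and without thinning 14.6% of KO and 21.99% of WT neutrophils did.

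Oga was also lower in KO macrophages, at a ratio of 0.815 (0.742 to 0.895), and in KO neutrophils, at 0.767 (0.625 to 0.941). In monocytes its ratio was 0.944 (0.855 to 1.04), an interval that includes 1, and 0.791 in thinned cells. By CPM, Oga passed 1.25-fold in neutrophils, where 20.8% of genes did, and not in macrophages, where 8.8% did. A ratio as low as that of Oga was found for 15.8% of genes in neutrophils, 10.1% in macrophages and 32.8% in monocytes. The macrophage ratio of Oga came nearer to 1 per cell (0.911) and in thinned cells (0.907), and the neutrophil ratio was 0.933 with cells under 2000 UMIs or 1000 genes left out. The ratio of Lyz2 CPM was 0.00422 in macrophages, 0.00272 in monocytes and 0.0832 in neutrophils, from 13.3, 15.7 and 44.8 CPM in KO against 3144, 5768 and 538.5 in WT. The free-RNA barcodes had 14.0 CPM of Lyz2 in KO and 1291 in WT.

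In lymphocytes the ratios lay near 1 over all T and NK cells, at 0.978 for Ogt (0.941 to 1.02) and 1.02 for Oga (0.986 to 1.06). Subsets differed, and in some of them the direction depended on the scale. In CD4 T cells the ratio of Ogt was 0.822 by CPM (0.741 to 0.912) 1.01 by UMIs per cell and 0.863 in thinned cells, with a median depth of 5507.5 UMIs in KO and 4799 in WT. The Oga ratio there was 0.875 by CPM (0.793 to 0.966) , 1.07 per cell and 0.831 in thinned cells. In regulatory T cells the Ogt ratio was below 1 on each scale, at 0.846 by CPM (0.752 to 0.951), 0.867 per cell and 0.835 in thinned cells. The Oga ratio there was 0.981 by CPM (0.878 to 1.10). NK cells had ratios of 0.957 for Ogt (0.879 to 1.04) and 1.02 for Oga (0.938 to 1.10). The percentage of genes at least 1.25-fold lower in KO was 11.5% in NK cells, 14.5% in CD8 T cells, 10.3% in CD4 T cells, 9.6% in regulatory T cells, 9.89% in unsplit T cells and 11.6% in gamma-delta T cells, and by CPM neither gene passed that fold in any of them. In thinned cells, which have no such background, the Ogt ratio was 0.745 in NK cells (101 UMIs in KO, 186 in WT). It was 0.679 in gamma-delta T cells, from only 24 UMIs in KO and 34 in WT, where the per-cell ratio without thinning was 1.14. The thinned Oga ratios were 1.03 in NK cells, 1.06 in gamma-delta T cells and 0.799 in regulatory T cells. No interval was computed for thinned ratios. Gamma-delta T cells had ratios of 0.986 for Ogt (0.794 to 1.23) and 0.937 for Oga (0.774 to 1.13).

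**Figure D3:**
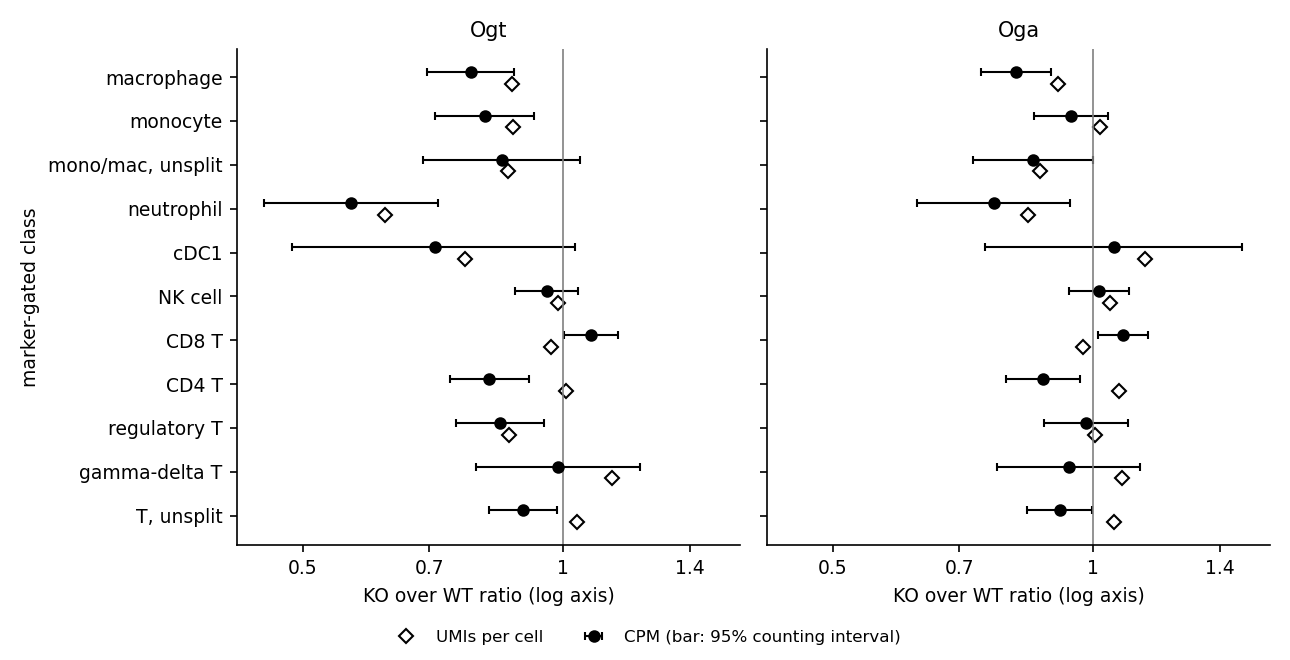
KO over WT ratio of Ogt (left) and Oga (right) in each marker-gated class on a log axis: filled points are ratios of CPM with 95% counting intervals, open diamonds are ratios of UMIs per cell, and the vertical line marks 1. Ogt is lowest in neutrophils (0.569), and in CD4 T cells the CPM ratio (0.822) and the per-cell ratio (1.01) lie on opposite sides of 1.

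In CD8 T cells both genes were higher in KO by CPM, at 1.08 for Ogt (1.001 to 1.16) and 1.08 for Oga (1.01 to 1.16). Per cell the ratios were 0.968 for Ogt and 0.974 for Oga, and in thinned cells 0.955 and 0.961. The part of the cycling cells and of depth in these ratios was not tested. The 2 matrices differed in how many CD8 T cells were cycling, taken as at least 3 of the 6 markers Mki67, Top2a, Cdk1, Birc5, Ccnb1 and Ccna2: 16.6% of KO cells (14.7 to 18.6) and 29.4% of WT cells (26.8 to 32.2). Cycling CD8 T cells had 75.2 CPM of Ogt in KO and 73.0 in WT, against 150.4 in KO and 171.5 in WT for CD8 T cells with 0 of these markers. Among cells with 0 markers the ratio of Ogt was 0.877 (0.787 to 0.978) and that of Oga 0.803 (0.726 to 0.887), below 1 where the pooled ratios were above it. Among cycling CD8 T cells the ratio was 1.03 for Ogt (0.890 to 1.19) and 1.27 for Oga (1.12 to 1.43), so Oga went opposite ways in the 2 sets of cells.

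Cycling cells had lower Ogt CPM than cells with 0 cycling markers in every lymphoid class split this way. In NK cells Ogt was 73.0 CPM in cycling and 124.6 in other KO cells, and 71.2 and 131.1 in WT. In macrophages the corresponding Ogt values were close, at 35.5 and 37.6 in KO and 41.6 and 48.6 in WT, with overlapping intervals. Oga was lower in cycling macrophages without overlap, at 47.0 against 64.9 CPM in KO and 50.15 against 77.1 in WT. Per cell it was higher in them, at 1.05 against 0.599 UMIs in KO and 0.922 against 0.691 in WT. Cycling cells were deeper, with a median of 16204 UMIs against 6225.5 in KO CD8 T cells and 16517 against 5378 in WT ones. Per cell the order turned: cycling CD8 T cells held 1.33 Ogt UMIs in KO and 1.29 in WT, and those with 0 markers 1.04 in KO and 1.04 in WT. Among macrophages with 0 cycling markers the KO over WT ratios were also below 1, at 0.775 for Ogt (0.670 to 0.896) and 0.842 for Oga (0.753 to 0.942). Ratios below 1 among cells with 0 cycling markers were not particular to macrophages: in regulatory T cells they were 0.738 for Ogt (0.636 to 0.856) and 0.835 for Oga (0.723 to 0.963), and in CD4 T cells 0.825 for Ogt (0.721 to 0.944) and 0.901 for Oga (0.795 to 1.02).

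**Figure D4:**
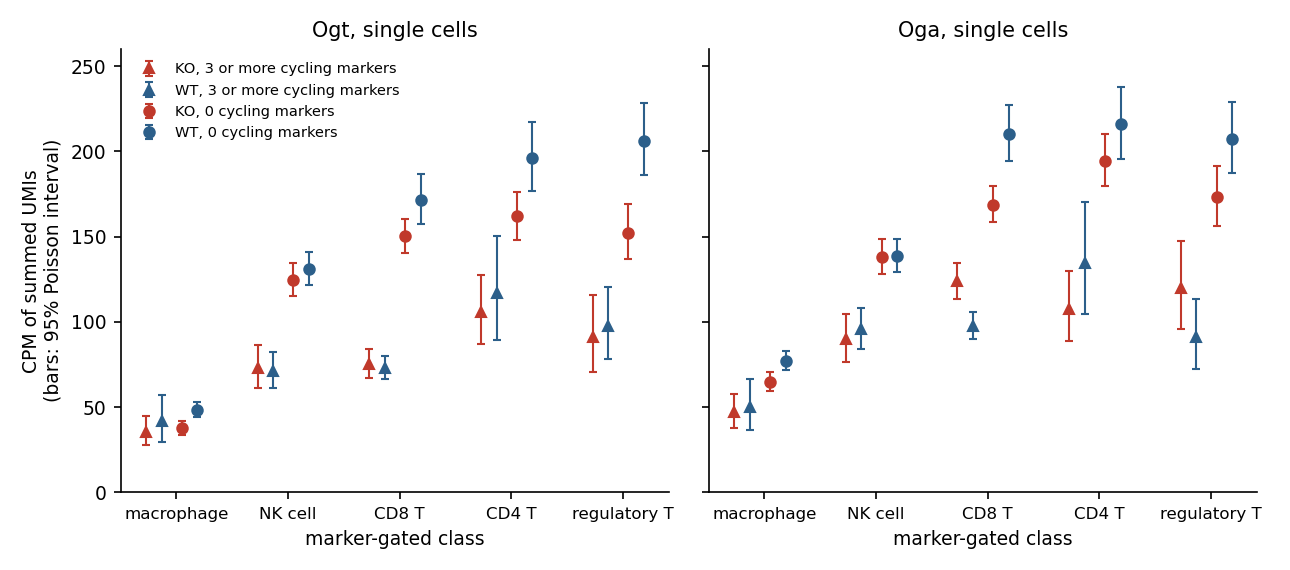
CPM of Ogt (left) and Oga (right) in 5 marker-gated classes, split into cells with at least 3 of 6 cycling markers (triangles) and cells with 0 of them (circles), KO left of WT in each pair, with 95% Poisson intervals. In CD8 T cells the triangles for Ogt lie at 75.2 (KO) and 73.0 (WT) and the circles at 150.4 and 171.5.

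The levels of Ogt and Oga varied together over the classes. Over 10 classes with at least 100 cells in each matrix (20 points, which share 2 libraries), the Pearson correlation of log2(CPM + 5) between Ogt and Oga was 0.97, given as a description. Among 6068 genes with at least 20 CPM on average, the 5 most like Ogt were Abhd2 (0.973), Oga (0.971), Il18r1 (0.965), Avl9 (0.965) and D16Ertd472e (0.965). The 5 most like Oga were Avl9 (0.984), D16Ertd472e (0.981), Arhgap15 (0.978), Ogt (0.971) and Magi3 (0.965). Il18r1 encodes a chain of the interleukin 18 receptor, Arhgap15 a GTPase-activating protein for Rac, and Magi3 a scaffold protein. The number of Ogt UMIs per Oga UMI still differed between the lineages: it was 0.585 in KO (0.543 to 0.631) and 0.632 in WT (0.590 to 0.677) in monocytes and macrophages, and 0.858 in KO (0.827 to 0.891) and 0.898 in WT (0.864 to 0.933) in T and NK cells. In neutrophils it was 0.684 in KO (0.544 to 0.858) and 0.923 in WT (0.749 to 1.14).

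**Figure D5:**
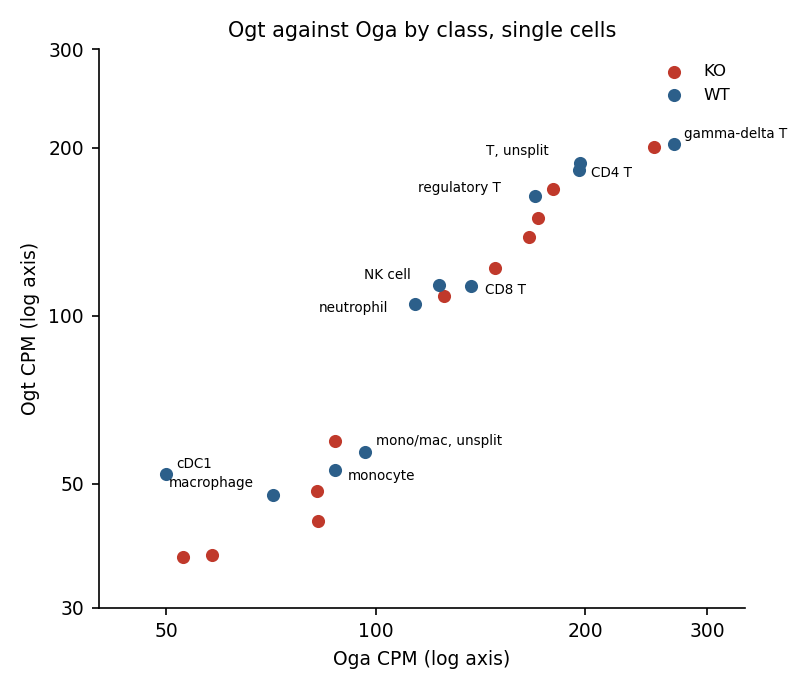
Ogt CPM against Oga CPM in single cells on log axes, with a point per marker-gated class for KO and for WT; class names stand beside the WT points. The myeloid classes other than WT neutrophils lie at the low end for both genes, and gamma-delta T cells at the high end (Ogt 200.1 in KO and 203.0 in WT).

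No deposited EGR2 peak lay near either gene. Within 2000 bases of the start site and within the gene body, Ogt and Oga had 0 peaks in the KO list (4995 peaks) and 0 in the WT list (5408 peaks). Of the 12939 genes tested in bulk RNA, 1.51% had a KO peak and 2.01% a WT peak within 2000 bases of the start site, and 9.19% and 10.4% within the gene body, so a gene without a peak is the usual case. The EGR2 peak nearest to the Ogt start site was 111.1 kb away in the KO list and 203.2 kb away in the WT list. The peak nearest to the Oga start site was 50.4 kb away in the KO list and 207.2 kb away in the WT list. The merged ATAC list (30189 peaks) had 0 peaks within 2000 bases of either start site, where 12.7% of tested genes had one, although both genes were transcribed. In gene bodies it had 0 peaks in Ogt and 2 in Oga, where 38.2% of tested genes had at least 1. The Oga peak named for WT (chromosome 19, 45771594 to 45772094) lay 11.7 kb inside the gene, covered 285 exonic bases and carried the authors' score of 53.0. The Oga peak named for KO (45778785 to 45779285) lay 4.49 kb inside the gene, covered 52 exonic bases and scored 14.7. Another peak, named for WT and scored 9.11, lay 3.44 kb past the end of Ogt (chromosome X, 101687789 to 101688289). The scores rank peaks within the list only, and no replicate-level peaks were analysed here.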

How the data were processed

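Bulk RNA was deposited as raw counts per gene, made by the authors with featureCounts 2.0.6 on GENCODE vM10 (mm10) per the file headers, without strand and with each read of a pair counted. Single cell data were deposited as UMI counts, covering all barcodes; the file headers name Cell Ranger 8.0.1. Each deposited peak carries a score by the authors; for the peak caller and aligner, the sources used here name none.

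Bulk libraries held 11468556 to 32406170 counts in KO and 7032540 to 12439582 in WT. Symbols matched 48058 of 48440 identifiers. Counts were tested with edgeR 4.0.16 in R 4.3.3 (quasi-likelihood, filterByExpr, TMM, 2-sided), with DESeq2 1.42.0 and limma 3.58.1 as alternatives. CPM per kilobase divides by exon length. On simulated counts of this comparison (12706 genes) the test called 42 of 50 genes lowered to 0.667 of their level, 39 of 50 raised 1.5-fold and 8 of 12506 unchanged genes.

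Cells with at least 1000 UMIs, 500 genes and at most 10% mitochondrial UMIs were kept. Scrublet, in scanpy 1.11.5 under Python 3.11.15, removed 311 KO (3.08%) and 529 WT (5.18%) doublets. In a simulated matrix with a true ratio of 0.5, the gates gave 0.566 (0.490 to 0.653). UMIs were summed per class; intervals are exact at 95%. Peaks overlapping by at least 1 base were counted.

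Named genes are Ogt, Oga, Lyz2, the called members of each list ranked by adjusted p (at most 4), and the 5 genes most alike in pattern; the members, lists and gates were chosen with earlier results of these data known. H3K27ac, H3K4me1 (title and genotype field name different genotypes) and EGR2 ChIP samples were not analysed here. Some marker genes, and an estimate of free RNA in myeloid cells that used one of them, are not reported here.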

Additional observations from a re-analysis of the deposited data

Results flagged for a closer look

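In the single cells, the KO over WT ratio by CPM went opposite ways in different classes, with counting intervals that leave out 1. For Ogt it was 1.08 in CD8 T cells, and 0.782 in macrophages, 0.811 in monocytes, 0.569 in neutrophils, 0.822 in CD4 T cells, 0.846 in regulatory T cells and 0.899 in unsplit T cells. For Oga it was 1.08 in CD8 T cells, and 0.815 in macrophages, 0.852 in unsplit monocytes or macrophages, 0.767 in neutrophils, 0.875 in CD4 T cells and 0.914 in unsplit T cells. The difference between classes was not tested, since there is 1 matrix per genotype. The higher CPM of CD8 T cells in KO did not hold per cell (0.968 for Ogt, 0.974 for Oga) or among cells with 0 cycling markers (0.877 and 0.803), and the lower values in CD4 T cells (1.01 and 1.07 per cell) and unsplit T cells (1.04 and 1.06) did not hold per cell either, although in thinned cells they stayed below 1 (0.863 and 0.831 in CD4 T cells, 0.942 and 0.961 in unsplit T cells). In macrophages and neutrophils both genes were below 1 per cell as well. So were Ogt in monocytes (0.875) and regulatory T cells (0.867), and Oga in unsplit monocytes or macrophages (0.867). In thinned cells the Oga ratio of unsplit monocytes or macrophages was above 1, at 1.14 (52 UMIs in KO, 43 in WT). By CPM it was 0.954 when the gate required 4 markers and a lead of 2.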

How the results depend on the processing

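The falls of Ogt and Oga in bulk kept their direction and their call with DESeq2, RLE factors, no low-count filter, halved counts and any 1 library left out (-0.80 to -0.65 for Ogt, -0.48 to -0.34 for Oga). With 1 library left out, 2010 to 2297 genes were called lower, 1981 to 2302 higher, and the log2 difference of the Ogt to Oga ratio was -0.41 to -0.19. With limma on TPM, added after seeing the data, Oga was at -0.14 and lost its call (adjusted p = 0.2491), and 846 genes were called lower and 4701 higher. Same-numbered libraries did not deviate together (correlations 0, 0.001 and 0.007); with the replicate number as a block, Ogt was at -0.71 and Oga at -0.41 and both stayed called. The macrophage ratio of Ogt in single cells ran from 0.752 to 0.874 under the alternatives that did not subtract free RNA; that of Oga moved to 0.907 in thinned cells and to 0.911 per cell. In KO barcodes under 50 UMIs, Ogt was at 85.9 CPM and Oga at 144.8. A window of 5 kb adds 1 ATAC peak, at Oga, and peaks above the median score leave 1 in its body. Of 31 named genes of the lists, 7 lost their call without 1 library. The counting intervals of the single cell ratios follow the UMIs of each gene, which were 49 for Ogt in KO and 76 in WT cDC1, against 538 in KO and 646 in WT macrophages.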
